A study of Rattus norvegicus with 42 samples.

Results

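Interferon signalling was represented by 8 genes, which were chosen by name: Stat2, Irf9, Irf1, Irf7, Isg15, Usp18, Mx2 and Gbp2. All 8 were found among the 22929 genes of the RNA count table and all 8 had more than 10 reads over the 12 RNA libraries. They held 19 of the 60999 regions scored for pSer2 Pol2, the elongating form of RNA polymerase II with phosphorylated serine 2 in its tail, and 5 of the 3981 glucocorticoid receptor (GR) regions were centred within 50 kb of one of their transcription start sites (TSS).

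When type I interferon engages its receptor on the cell surface, the kinases Jak1 and Tyk2 phosphorylate Stat proteins, Stat2 among them, which join Irf9 and enter the nucleus. That complex binds the interferon-stimulated response element (ISRE) in the promoters of antiviral genes, while the gamma-activated site (GAS) answers to Stat dimers downstream of interferon gamma. Irf1 and Irf7 are further transcription factors of the pathway, Isg15 is a ubiquitin-like modifier, Usp18 removes Isg15 from proteins and restrains the receptor, and Mx2 and Gbp2 are GTPases of antiviral and antimicrobial defence. In the liver these genes are expressed in hepatocytes and in resident macrophages, and glucocorticoids are known to dampen their induction.

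Livers came from adrenalectomised male Sprague Dawley rats, which lack the adrenal source of corticosterone (CORT), after 140 or 180 min of intravenous infusion. CORT was given as a 20 min pulse in each hour (PULS) or at a constant rate (CONS), matched in hourly dose, and controls received vehicle (VEH). For ChIP-Seq of GR and of pSer2 Pol2 there were 5 groups of 2 libraries, each library from 6 rats: PEAK_140 (the third pulse, at 140 min), NADIR_180 (its trough, at 180 min), CONS_140, CONS_180 and VEH, of which one library was taken at 140 min and the other at 180 min of pulsatile vehicle. RNA-Seq was made at 180 min in 4 groups of 3 libraries, PULS CORT, PULS VEH, CONS CORT and CONS VEH. The label numbers of the RNA libraries were lower for all CORT than for all VEH libraries, and those of the ChIP libraries were lowest for pulsatile CORT, higher for VEH and highest for constant CORT in each assay. Within RNA the numbers were lower for all CONS CORT than for all PULS CORT libraries. They were 812, 813 and 1134 in CONS VEH and 1081, 1088 and 1089 in PULS VEH. The labels do not say what the numbers mark. Anything that went with them cannot be told apart from CORT in RNA or from CORT and infusion pattern in ChIP. In RNA it cannot be told apart from pattern between the CORT groups either, and it may enter other comparisons of the patterns. The p-values below measure the spread between the libraries given. GR libraries held 2051977 to 6715803 tags, pSer2 Pol2 libraries 4938473 to 9326927 tags and RNA libraries 3956379 to 7777219 reads.

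Promoter windows of 5 of the 8 genes were matched by symbol in RefSeq (build GRCr8, 250 bases before to 50 after the start). They were searched on both strands for the ISRE (GAAA, any 2 bases, GAAA), the GAS (TTCNNNGAA), the full glucocorticoid response element (AGAACA, any 3 bases, TGTTCT) and its looser core (GNACA, any 3 bases, TGTNC), because these are the letters through which the factors under study are known to bind. Of all 33469 windows of that length, 3.92% held the ISRE letters, 8.87% the GAS letters, 0.0149% the full glucocorticoid element and 0.439% the core. Irf7 and Gbp2 each held 1 ISRE match, Irf1 and Irf9 each held 1 GAS match, and the Stat2 window held none of the 4 motifs. No window of the 5 held either glucocorticoid motif. The 250 bases before the start of the 4 genes with a match are shown 5′ to 3′ on the strand of the gene, with the match in capitals. The Irf1 stretch is chr10:38417685-38417934 (plus strand), with the GAS at -142 to -134 from the start. The Irf9 stretch is chr15:33065586-33065835 (plus strand), with the GAS at -99 to -91. The Irf7 stretch is chr1:205800024-205800273 (minus strand), with the ISRE at -69 to -60 read on the opposite strand. The Gbp2 stretch is chr2:234005477-234005726 (plus strand), with the ISRE at -31 to -22, also on the opposite strand.
Irf1: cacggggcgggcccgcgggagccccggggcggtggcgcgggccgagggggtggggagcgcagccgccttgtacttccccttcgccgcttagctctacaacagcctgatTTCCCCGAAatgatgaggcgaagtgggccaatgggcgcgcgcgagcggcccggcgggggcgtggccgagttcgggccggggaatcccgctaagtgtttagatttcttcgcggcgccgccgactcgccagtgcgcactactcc
Irf9: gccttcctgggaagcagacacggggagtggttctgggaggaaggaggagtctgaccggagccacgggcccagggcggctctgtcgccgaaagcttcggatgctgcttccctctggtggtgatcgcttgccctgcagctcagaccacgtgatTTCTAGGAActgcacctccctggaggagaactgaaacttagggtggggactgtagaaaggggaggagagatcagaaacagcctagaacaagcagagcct
Irf7: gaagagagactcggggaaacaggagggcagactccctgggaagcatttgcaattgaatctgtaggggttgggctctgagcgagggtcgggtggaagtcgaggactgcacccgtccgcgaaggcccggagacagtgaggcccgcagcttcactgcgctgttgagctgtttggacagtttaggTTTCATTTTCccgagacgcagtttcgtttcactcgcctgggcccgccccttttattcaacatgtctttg
Gbp2: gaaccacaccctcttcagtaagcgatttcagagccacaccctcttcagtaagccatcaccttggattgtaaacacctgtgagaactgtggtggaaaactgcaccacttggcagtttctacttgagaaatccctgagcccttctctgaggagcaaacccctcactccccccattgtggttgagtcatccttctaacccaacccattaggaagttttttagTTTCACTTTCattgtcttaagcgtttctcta
The capitals mark letters only, and whether the sites were occupied by Stat or Irf factors was not measured.

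Of the 8 interferon signalling genes 2, Irf1 and Usp18, had lower RNA in CONS CORT than in CONS VEH by the test, and the other 6 were not called. Irf1 fell by 1.83 on the log2 scale (SE 0.25) and Usp18 fell by 1.17 (SE 0.25). In PULS CORT relative to PULS VEH none of the 8 was called, although Irf1 had the lowest value there too, -0.84 (SE 0.25). Calls required a change of over 1.5-fold and a p below 0.05 in edgeR after Benjamini-Hochberg adjustment. By this rule 4.75% of the 14092 genes tested were lowered in CONS and 2.44% in PULS. At an unadjusted p below 0.05 there were 6 of the 8 genes in CONS and 1 in PULS, beside 25.3% and 19.8% of all genes tested. DESeq2 called 3 in CONS, Irf7 being the added gene (-0.95, adjusted p = 0.0393), and 1 in PULS, Irf1. In whole liver, fewer cells that express a gene and less RNA per cell cannot be told apart.

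Irf1, a transcription factor that interferon gamma and inflammatory signals induce, showed the greatest difference. Its level was 23.3, 36.6 and 24.6 CPM (read counts scaled to library size) in the 3 CONS VEH libraries and 8.33, 10.3 and 4.48 CPM in the 3 CONS CORT libraries, or 28.2 ± 7.31 and 7.69 ± 2.95 CPM (mean ± SD, n = 3). Every CONS CORT library lay well below every CONS VEH library (edgeR adjusted p = 0.000109). In the pulsatile arm Irf1 was at 17.0, 24.7 and 25.3 CPM in PULS VEH and at 13.5, 12.1 and 11.7 CPM in PULS CORT, again with no overlap. That change of -0.84 did not pass the test in edgeR (adjusted p = 0.0583), and the call was sensitive to the fit: it passed when PULS VEH replicate 1 was left out (adjusted p range over the 6 libraries left out in turn 0.0393 to 0.168), under DESeq2 and under 3 other settings. CONS CORT was also below PULS CORT in every library, by -0.68 (SE 0.27, edgeR adjusted p = 0.351), which was not called.

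Usp18, the Isg15 protease that restrains the interferon receptor, was the other gene that fell. CONS VEH held 30.9, 33.9 and 29.9 CPM, and CONS CORT held 12.4, 16.6 and 12.5 CPM (edgeR adjusted p = 0.00453). All 3 vehicle libraries were above 29 CPM and close together. PULS VEH held 23.4, 23.2 and 9.75 CPM and PULS CORT 20.2, 11.9 and 14.2 CPM, and these groups overlapped (log2 fold change -0.28, SE 0.26, edgeR adjusted p = 0.62). Both Irf1 and Usp18 remained called in CONS when each of the 6 CONS libraries was left out in turn, with the highest adjusted p at 0.000709 for Irf1 and 0.0271 for Usp18.

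Mx2, a GTPase that interferon induces, was at 34.3, 59.3 and 23.5 CPM in CONS VEH and at 18.3, 21.8 and 11.8 CPM in CONS CORT. The groups did not overlap, and the difference of -1.15 (SE 0.37) lay just outside the threshold (edgeR adjusted p = 0.0512). Irf7, the factor that amplifies type I interferon, was at 16.7, 33.1 and 23.2 CPM in CONS VEH and at 13.0, 16 and 8.42 CPM in CONS CORT, a difference of -0.92 (SE 0.31, edgeR adjusted p = 0.0656). Gbp2, a guanylate-binding protein, was at 10.6, 18.3 and 13.9 CPM against 10.4, 9.71 and 4.84 CPM (-0.75, SE 0.34, edgeR adjusted p = 0.178). Each of these 3 genes had its highest CONS VEH value in the same library, replicate 2, and its lowest CONS CORT value in replicate 3.

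The 2 partners of the Stat complex were not called. Irf9 was at 20.9, 22.5 and 20.6 CPM in CONS VEH and at 16.5, 18.6 and 13.3 CPM in CONS CORT, with no overlap and a difference of -0.40 (SE 0.17, edgeR adjusted p = 0.139). Stat2 was at 118, 124 and 122 CPM against 95.5, 105 and 111 CPM, also without overlap, a difference of -0.22 (SE 0.11, edgeR adjusted p = 0.236). Isg15 was measured with few reads, 16 to 25 in CONS VEH and 6 to 20 in CONS CORT, its groups overlapped, and its difference was -0.79 (SE 0.45, edgeR adjusted p = 0.308), or -0.37 (edgeR adjusted p = 0.714) without CONS VEH replicate 2.

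**Figure D1:**
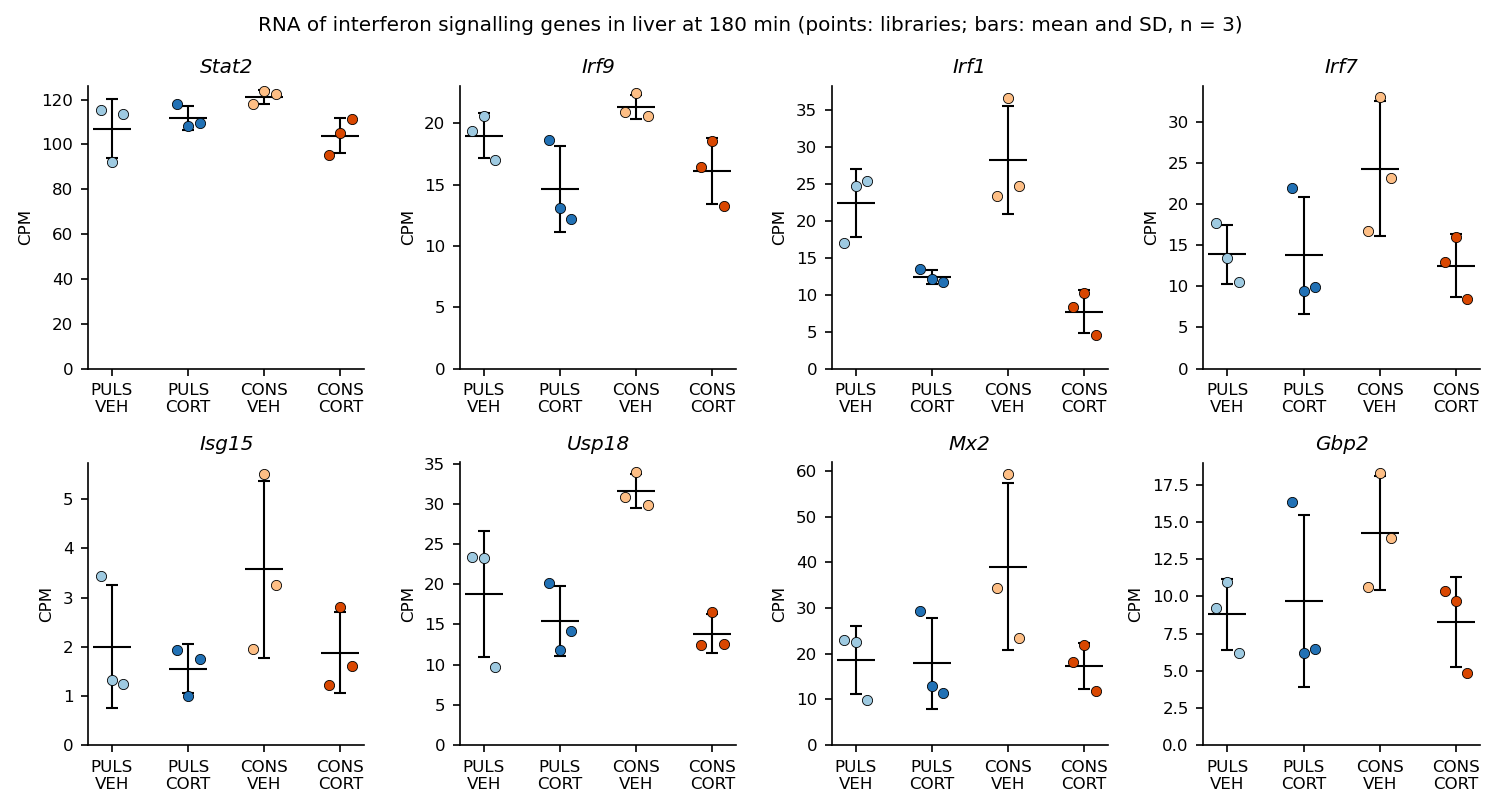
RNA levels in CPM of the 8 interferon signalling genes at 180 min in PULS VEH, PULS CORT, CONS VEH and CONS CORT. Points are libraries, and bars give the mean and SD (n = 3). The 3 CONS CORT libraries lie below the 3 CONS VEH libraries for 7 of the 8 genes, while the PULS groups overlap for all but Irf1.

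Counted over the 8 genes, 7 had every CONS CORT library below every CONS VEH library, against 14.8% of the 14092 genes tested, and all 8 fold changes were below 0 with a median of -0.85 (all genes tested, -0.01). In PULS, 5 of 8 fold changes were below 0 with a median of -0.15 (all genes tested, -0.01) and 1 of 8 genes did not overlap, against 12.8% of all genes. The 8 genes were chosen with earlier results of these data known, so these counts only describe them. In PULS CORT relative to PULS VEH the other fold changes were -0.36 for Irf9 (SE 0.17), -0.36 for Isg15 (SE 0.55), -0.03 for Mx2 (SE 0.40), 0.01 for Irf7 (SE 0.33), 0.06 for Stat2 (SE 0.11) and 0.17 for Gbp2 (SE 0.36).

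The difference between the CONS and the PULS response was itself tested as an interaction, and it was not called for any of the 8 genes. Across all genes 0.0284% were called in that test, which is 4 genes, against 215 with DESeq2 and 204 with no filter on low counts, none of them among the 8. The interaction was below 0 for all 8 genes, with a median of -0.91 (all genes tested, 0.02). It was -1.0 for Irf1 (SE 0.35, edgeR adjusted p = 0.236) and -0.90 for Usp18 (SE 0.36, edgeR adjusted p = 0.31), the only 2 of the 8 genes with an unadjusted p below 0.05, beside 12.4% of all genes.

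The 2 vehicle groups were compared as well, and none of the 8 genes was called by edgeR, nor was any of the 14092 genes tested (0%). All 8 fold changes of PULS VEH relative to CONS VEH were below 0, with a median of -0.70 (all genes tested, 0.01), and 4 of them, Usp18, Mx2, Irf9 and Stat2, had no overlap, against 6.86% of all genes. At an unadjusted p below 0.05, as for 9.13% of all genes, there were 3 of the 8: Usp18 at -0.74 (SE 0.24, edgeR adjusted p = 0.389), Mx2 at -1.05 (SE 0.37, edgeR adjusted p = 0.415) and Irf7 at -0.77 (SE 0.31, edgeR adjusted p = 0.485). DESeq2 called 22 genes in that comparison and edgeR with no filter on low counts 30, none of them among the 8.

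The 2 CORT groups were compared directly. In CONS CORT relative to PULS CORT the median was -0.13 (all genes tested, 0.00), 6 of 8 were below 0, and none was called, against 0.887% of all genes. The fold changes ran from -0.68 for Irf1 to 0.31 for Isg15, and Irf1 was the only one of the 8 with an unadjusted p below 0.05 (11.0% of all genes), as it was the only one without overlap, against 7.90% of all genes lower without overlap. DESeq2 called none of the 8. The CONS fold changes are relative to CONS VEH, and the part of the vehicle values in them was not tested.

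**Figure D2:**
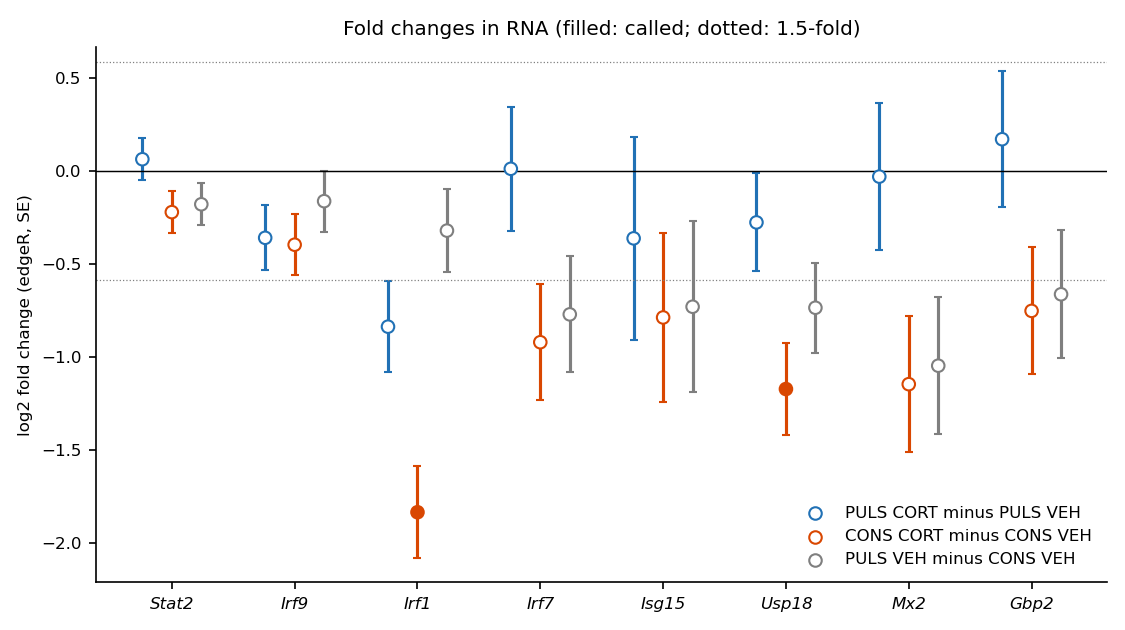
Log2 fold changes with SE from edgeR for PULS CORT minus PULS VEH, CONS CORT minus CONS VEH and PULS VEH minus CONS VEH. Filled points passed the test and dotted lines mark 1.5-fold. Irf1 and Usp18 in CONS are the 2 filled points, and all 8 genes lie below 0 in CONS and between the vehicle groups.

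The spread within groups was described by how many of the 8 genes lay above the mean of their group in each library. PULS CORT replicate 1, CONS VEH replicate 2 and CONS CORT replicate 2 had all 8 genes above it, and CONS VEH replicate 1 and PULS CORT replicate 2 had 0 of 8. The other 7 libraries had between 1 and 7, with 5 of 8 in CONS CORT replicate 1 and in PULS VEH replicate 2. Over the 12 libraries, which share groups and depth so that differences between groups enter, the correlation of log2 CPM between pairs of the 8 genes ran from 0.24 (Stat2 with Irf9) to 0.94 (Irf7 with Gbp2). The genes most like Irf1 over the 12 libraries, among 11633 compared, were Igtp, Zmym3 and Hdhd3 (Pearson r 0.96, 0.95 and 0.95), and those most like Irf9 were Nmi, Cc2d1a and Ccl27 (each 0.94). Irf7 was most like Gbp2 and Lef1 (0.94 and 0.93), and Gbp2 most like Irf7 and Lef1 (0.94 and 0.92). Mx2 was most like Herc6, Tnip1 and Klrk1 (0.94, 0.92 and 0.92), and Usp18 most like Oas1a, Ifi27 and Layn (0.92, 0.91 and 0.90). Isg15 was most like Ifi27, Mapkapk2 and Lgals9 (0.87, 0.85 and 0.84), and Stat2 most like Cmtr1, Abca3 and Grk6 (0.91, 0.90 and 0.89).

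The rest of the pathway was counted over fixed lists, which were also chosen with earlier results of these data known. Of 51 other interferon-stimulated genes 46 were tested, and 17 were lowered in CONS and 3 in PULS, beside 4.75% and 2.44% of all genes. None was raised in either, beside 4.45% and 1.79% of all genes. Their median was -0.63 in CONS (all genes tested, -0.01) and -0.33 in PULS (all genes tested, -0.01). The count in CONS was 9 without CONS CORT replicate 3, 11 without CONS CORT replicate 1 and 8 without CONS VEH replicate 2. The interaction was called for 0 of the 46, and 41 of the 46 were below 0, beside 48.5% of all genes, with a median of -0.38 (all genes tested, 0.02). Between the vehicle groups, which enter the interaction, none of the 46 was called (0% of all genes). At an unadjusted p below 0.05 in edgeR there were 11 of the 46, beside 9.13% of all genes. The median of PULS VEH relative to CONS VEH was -0.24 (all genes tested, 0.01).

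The lowered genes in CONS included the guanylate-binding proteins Gbp3 (-2.07, SE 0.41), Gbp5 (-1.33, SE 0.34), Gbp6 (-1.21, SE 0.22) and Gbp7 (-1.03, SE 0.30), whose sequences are alike, so that reads may have been shared between copies, Gbp2 included. The immunity-related GTPases Igtp and Irgm fell in both patterns. Igtp was at -1.51 in CONS (SE 0.18, edgeR adjusted p = 3.49e-05) and -1.09 in PULS (SE 0.18, edgeR adjusted p = 0.00206), and Irgm was at -1.65 in CONS (SE 0.32) and -1.42 in PULS (SE 0.32). The mono-ADP-ribosyltransferase Parp14 fell in both as well, by 1.13 in CONS (SE 0.13) and by 0.63 in PULS (SE 0.13). Irgm in PULS was no longer called without PULS CORT replicate 1, PULS CORT replicate 2 or PULS VEH replicate 2. In CONS the transmembrane chaperone Rtp4 fell by 1.68 (SE 0.29) and Parp9 by 0.71 (SE 0.17). Uba7, which activates Isg15 for its transfer to proteins, fell by 0.83 (SE 0.16), and Ube2l6, which conjugates it, by 0.62 (SE 0.18), while the ligase Herc6 was not called (-0.59, SE 0.25, edgeR adjusted p = 0.151). Mx1, the paralogue of Mx2, fell by 1.29 in CONS (SE 0.39, edgeR adjusted p = 0.0375) and was at -0.55 in PULS (SE 0.42, edgeR adjusted p = 0.519). Further called genes were Oas1a, a sensor of double-stranded RNA (-1.10, SE 0.30), Samhd1, a dNTP hydrolase (-1.0, SE 0.25) and Ifi27 (-0.67, SE 0.17).

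The upstream part of the pathway was counted in the same way. Of 10 interferon ligands 9 were in the count table and none passed the read filter. None of the 9 receptors and kinases or of the 5 other Irf factors analysed here was called by edgeR in either pattern. At an unadjusted p below 0.05 there were 1 receptor or kinase in CONS and 4 in PULS, and 1 Irf factor in CONS and 0 in PULS. The shares of all genes tested at that threshold were 25.3% in CONS and 19.8% in PULS. Of 11 sensors and adaptors tested 3 fell in CONS, namely the receptor for double-stranded RNA Tlr3 (-0.84, SE 0.21), the helicase Dhx58 (-0.73, SE 0.20) and the kinase Ikbke (-0.61, SE 0.14), and none was called in PULS. By the same rule 4.75% of all genes tested were lowered in CONS and 2.44% in PULS, and 4.45% and 1.79% were raised. Of 6 brakes tested, such as phosphatases that act on the kinases, none was called in either pattern. At an unadjusted p below 0.05 there were 3 brakes in CONS and 1 in PULS, beside 25.3% and 19.8% of all genes. Of the 20 genes called in CONS over these lists, 8 remained called with each library left out in turn, namely Igtp, Irgm, Parp14, Gbp3, Gbp6, Rtp4, Uba7 and Tlr3. The other 12, among them Gbp5, Gbp7, Mx1, Oas1a, Samhd1, Ifi27, Parp9, Ube2l6, Dhx58 and Ikbke, lost the call for 2 to 5 of the 6 libraries. Calls lost numbered 11 without CONS VEH replicate 2, 10 without CONS CORT replicate 3, 8 without CONS CORT replicate 1, 5 without CONS VEH replicate 3, 3 without CONS CORT replicate 2 and 2 without CONS VEH replicate 1, and Mx1 was at -0.85 without CONS VEH replicate 2.

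**Figure D3:**
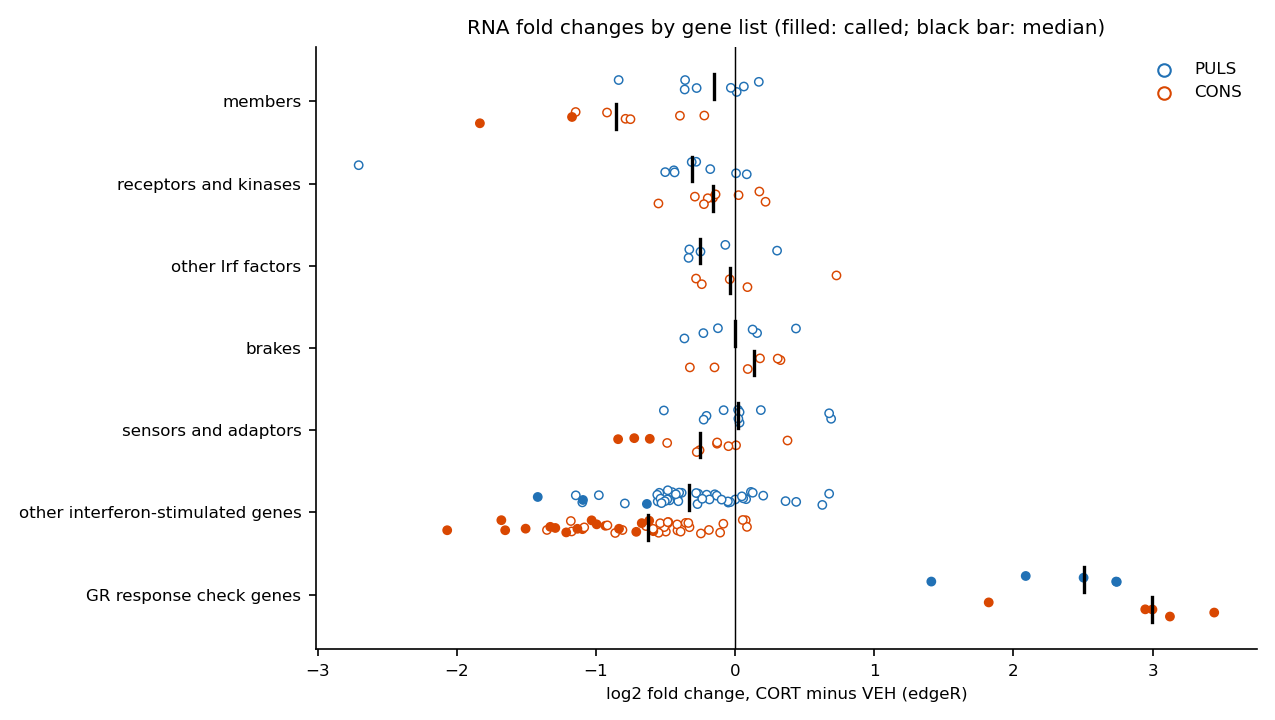
Log2 fold changes of CORT against VEH for each gene list, with PULS above CONS in each row. Each point is a gene, filled where called, and black bars are medians. Filled points below 0 in CONS number 17 of 46 among the other interferon-stimulated genes and 2 of 8 among the members, and all 5 GR response genes are filled above 0 in both patterns.

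As a check of the treatment, 5 of 5 known GR response genes (Fkbp5, Per1, Tsc22d3, Tat and Zbtb16) were raised in both patterns. Markers of cells in which interferon genes are strongly expressed had summed levels that overlapped between the groups. The summed level of 9 Kupffer cell and macrophage markers was 359 to 646 CPM in CONS VEH, 405 to 461 in CONS CORT, 357 to 507 in PULS VEH and 382 to 592 in PULS CORT. By gene, 7 of these 9 markers were below 0 in CONS (median -0.17) and 1 in PULS (median 0.20). In the interaction 7 were below 0 (median -0.39), and in PULS VEH relative to CONS VEH 6 were (median -0.19). None of these markers was called. The medians over all genes tested were -0.01, -0.01, 0.02 and 0.01 in the same order. The 2 highest sums, 646 and 592 CPM, were those of CONS VEH replicate 2 and PULS CORT replicate 1, in which all 8 interferon genes were above their group mean. The other library with all 8 genes above its group mean, CONS CORT replicate 2, had the lowest sum of its group (405 CPM), as did PULS VEH replicate 1 (357 CPM), with 7 of 8 above. The part of these cells in the results was not tested. Without CONS VEH replicate 2 the CONS change was -1.61 for Irf1 (edgeR adjusted p = 0.000382) and -1.12 for Usp18 (edgeR adjusted p = 0.014), both still called, and -0.74 for Mx2 (edgeR adjusted p = 0.224). Lymphocyte markers summed to at most 4.72 CPM in any library and 1 of the 9 in the table had no read. Neutrophil markers summed to at most 5.73 CPM and 1 of 4 had no read. The 6 hepatocyte markers summed to 130149 to 174026 CPM in CONS VEH, 147602 to 159172 in CONS CORT, 157798 to 159206 in PULS VEH and 154377 to 175631 in PULS CORT. At an unadjusted p below 0.05 in edgeR there were 3 of these 6 markers in CONS, 1 in PULS, 2 in the interaction and 2 between the vehicle groups, none of which was called. The shares of all genes tested were 25.3%, 19.8%, 12.4% and 9.13% in the same order.

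pSer2 Pol2 over the gene bodies showed no called change in any of the 8 comparisons. Occupancy is given as log2 values over the first 10 kb of a gene or its whole length, and each gene is represented by its longest region, or among regions of equal length by that with the lower start. Of the 8 genes 7 had tags and were tested, and Gbp2 was listed at 0 in all 10 libraries. Called regions made up 0.989% of all regions tested in PEAK_140, 0.00522% in NADIR_180, 0.788% in CONS_140 and 0.214% in CONS_180, each relative to VEH. They made up 0.480% between PEAK_140 and NADIR_180, 0% between CONS_140 and CONS_180, 0.0261% between PEAK_140 and CONS_140 and 0.170% between CONS_180 and NADIR_180. With the replicate number as a block the called regions rose from 379 to 577 in PEAK_140, from 302 to 501 in CONS_140 and from 82 to 132 in CONS_180 relative to VEH, from 10 to 484 between PEAK_140 and CONS_140 and from 0 to 9 between CONS_140 and CONS_180, and the region taken for each of the 8 genes was not called under the block either. The VEH libraries carry no number and were numbered by their order, replicate 1 at 140 min and replicate 2 at 180 min. The block relative to VEH thus rests on an assigned number that goes with time. No region of another named gene overlapped those of the 8 genes.

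Stat2 (chr7:2691369-2701369) had no called difference, and its CONS_140 value relative to VEH was the highest of the 7 genes in the 4 comparisons with VEH. It was at 8.21 and 7.52 in VEH, 8.38 and 8.24 in PEAK_140, 8.33 and 8.22 in NADIR_180, 9.23 and 8.78 in CONS_140 and 8.76 and 8.07 in CONS_180. Both libraries of PEAK_140, NADIR_180 and CONS_140 were above both VEH libraries, as were 4.25%, 8.44% and 10.6% of all regions, and CONS_180 overlapped VEH. Relative to VEH the difference was 0.45 in PEAK_140, 0.41 in NADIR_180, 1.14 in CONS_140 and 0.55 in CONS_180 (SE 0.36 each), and the limma adjusted p was 0.999, 1, 0.365 and 0.999. Stat2 in CONS_140 was the only one of the 7 genes with an unadjusted p below 0.05 relative to VEH (5.91% of all regions in CONS_140), and it was called there when CONS_140 replicate 2 was left out. The 4 comparisons share the 2 VEH libraries. A second Stat2 region of the same length, for a transcript that starts further downstream (chr7:2694440-2704440), was 0.13 above VEH in PEAK_140 and 0.43 above it in CONS_140 (SE 0.45, adjusted p = 0.999 and 0.777), and its libraries overlapped with VEH in both.

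Irf1 (chr10:39109522-39116531) was at 6.98 and 6.32 in VEH, 6.63 and 6.39 in PEAK_140, 6.67 and 6.89 in NADIR_180, 7.01 and 5.22 in CONS_140 and 6.39 and 3.49 in CONS_180. The lowest value was that of 1 CONS_180 library, and the other lay between the 2 VEH libraries. The difference was -1.71 (SE 0.80) relative to VEH (limma adjusted p = 0.999), and -1.84 (SE 0.80) relative to NADIR_180, where the libraries did not overlap (adjusted p = 1). Irf9 (-0.64) and Isg15 (-0.26) were below NADIR_180 without overlap too, which makes 3 of the 7 genes, against 11.4% of all regions, and none was called.

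Irf9 (chr15:34282936-34288138) was at 6.21 and 5.94 in VEH, 6.24 and 5.85 in PEAK_140, 6.54 and 6.50 in NADIR_180, 6.78 and 4.85 in CONS_140 and 6.31 and 5.45 in CONS_180. Irf7 (chr1:214248837-214252456) was at 6.26 and 5.45 in VEH, 6.02 and 5.80 in PEAK_140, 6.12 and 5.99 in NADIR_180, 6.80 and 5.37 in CONS_140 and 6.16 and 5.71 in CONS_180. For both genes, as for Irf1, the second library of CONS_140 and of CONS_180 was the lower of its pair. Isg15 (chr5:173624310-173626248) stayed between 3.76 and 4.18 and Usp18 (chr4:153805993-153815993) between 2.96 and 3.46 in all 10 libraries. Mx2 (chr11:38035450-38045450) was between -0.57 and -0.56 in 9 libraries and at 0.17 in CONS_140 replicate 1, so that it was near the lower end of the scale. Over the 7 genes tested the median difference from VEH was 0.00 in PEAK_140, 0.15 in NADIR_180, 0.06 in CONS_140 and -0.08 in CONS_180, beside -0.05, 0.01, 0.15 and 0.01 over all regions tested.

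**Figure D4:**
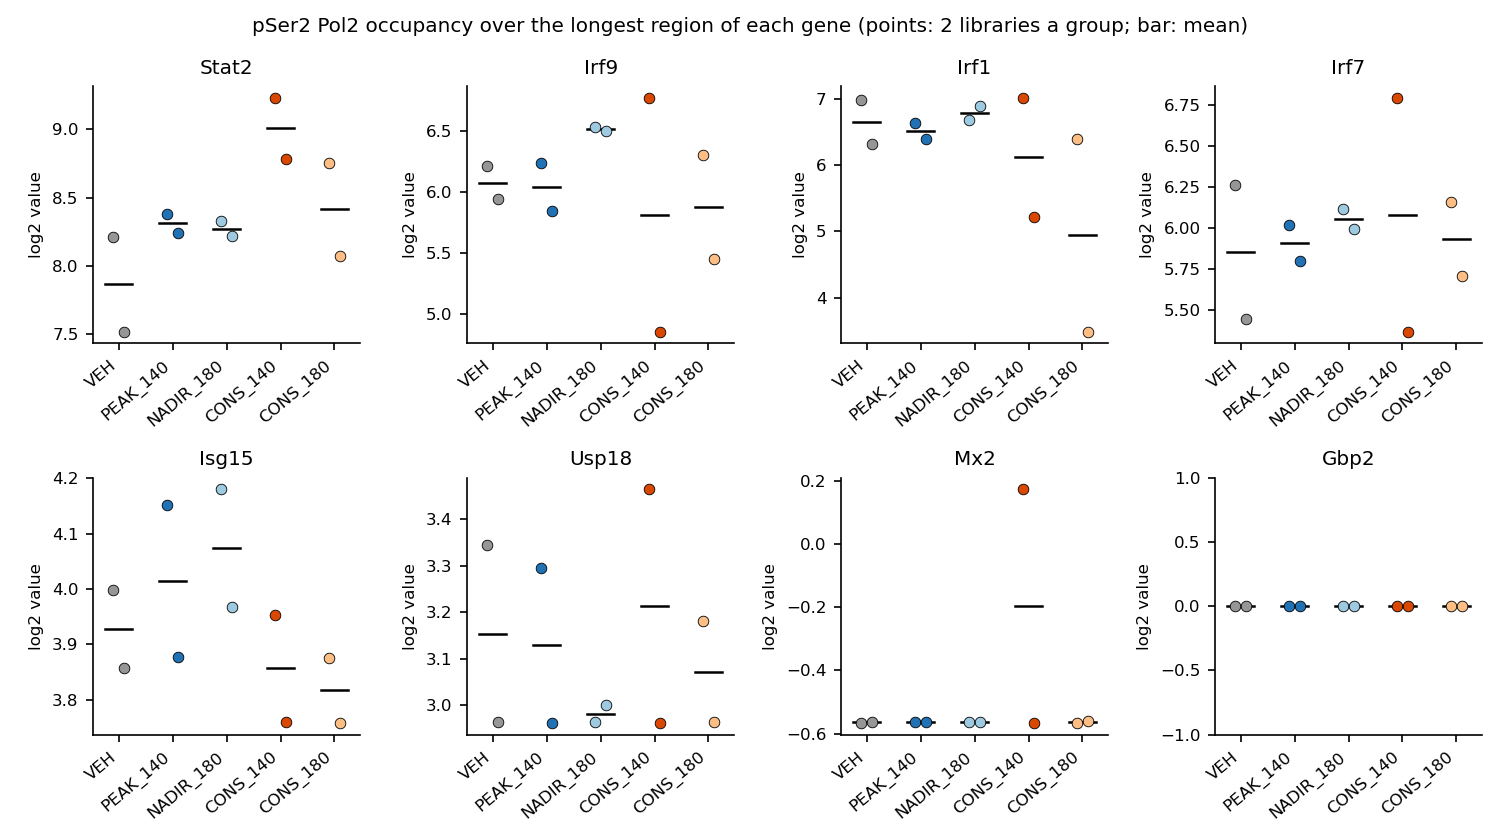
pSer2 Pol2 log2 values over the longest region of each of the 8 genes in VEH, PEAK_140, NADIR_180, CONS_140 and CONS_180. Points are the 2 libraries of a group and bars their mean, on a scale of its own for each gene. Stat2 is highest in CONS_140, 1 CONS_180 library of Irf1 is at 3.49, and Gbp2 is listed at 0 throughout.

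Of 44 other interferon-stimulated genes tested for pSer2 Pol2, 1 was called relative to VEH, beside 0.989% of all regions in PEAK_140. It was Cxcl10, an interferon-induced chemokine. It was at 3.45 and 2.92 in VEH, 6.76 and 6.56 in PEAK_140, 3.39 and 4.79 in NADIR_180, 3.63 and 2.44 in CONS_140 and 2.48 and 2.62 in CONS_180 (chr14:17210733-17212930). Only PEAK_140 stood above the other groups. PEAK_140 was higher than VEH by 3.48 (SE 0.48, limma adjusted p = 0.00611), than NADIR_180 by 2.57 (adjusted p = 0.0471) and than CONS_140 by 3.63 (adjusted p = 0.0473). The call against VEH was lost with any 1 of its 4 libraries left out, and those against NADIR_180 and CONS_140 with 3 of the 4 each. The latter calls were also lost with no variance trend (adjusted p = 0.155 and 0.0805), and all 3 calls were lost with only the 4 libraries compared in the fit (adjusted p = 0.312, 0.288 and 0.605). In that last fit 0 of all regions were called in these 3 comparisons, so the loss was not particular to Cxcl10. Its differences stayed at 3.48, 2.57 and 3.63 by construction, since a difference between group means does not depend on the other groups. In RNA at 180 min Cxcl10 was listed at 0 reads in all 12 libraries, so its transcript could not be compared. No other gene of the lists of ligands, receptors, Irf factors, brakes and sensors was called for pSer2 Pol2 relative to VEH.

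GR regions lay within 50 kb of 3 of the 8 genes, Stat2, Irf1 and Irf9, all upstream of the start, and none lay that near to Irf7, Isg15, Usp18, Mx2 or Gbp2. Of all 26426 genes with a start in the table, 16.9% had a GR region in that window. The region nearest a start was at the Stat2 promoter, chr7:2690799-2691533 (rn6), centred 203 b upstream, with a peak called in PEAK_140, CONS_140 and CONS_180. A second, chr7:2688975-2689600, was centred 2082 b upstream of Stat2 and is annotated as the promoter of Apof, which encodes an apolipoprotein.

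The region 2082 b upstream of Stat2 was called in 5 comparisons, more than any other of the 5 regions. It was at 2.00 and 3.15 in VEH, 5.76 and 6.26 in PEAK_140, 3.35 and 3.19 in NADIR_180, 6.08 and 6.49 in CONS_140 and 5.89 and 6.12 in CONS_180 (log2 values). PEAK_140, CONS_140 and CONS_180 stood together above VEH and NADIR_180. Relative to VEH it rose by 3.44 in PEAK_140 (SE 0.47, limma adjusted p = 0.000262), by 3.71 in CONS_140 (adjusted p = 0.000234) and by 3.43 in CONS_180 (adjusted p = 0.000411), and the difference in NADIR_180 was 0.70 (adjusted p = 0.486). PEAK_140 was higher than NADIR_180 by 2.74 (adjusted p = 0.00147) and CONS_180 higher than NADIR_180 by 2.73 (adjusted p = 0.00275). All these calls held with each library left out in turn, and none held after quantile normalization or centring of the libraries. Both regions near Stat2 had a peak called in PEAK_140, CONS_140 and CONS_180 and in neither VEH nor NADIR_180. That choice favoured a rise in the groups with a peak, so no conclusion is drawn from a rise there.

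The Stat2 promoter region was at 1.83 and -1.01 in VEH, 4.55 and 4.30 in PEAK_140, 0.67 and -0.59 in NADIR_180, 5.72 and -0.95 in CONS_140 and 3.96 and 3.79 in CONS_180. PEAK_140 and CONS_180 lay above both VEH libraries, as they did in 88.5% and 83.6% of all GR regions, while the 2 CONS_140 libraries were far apart. The differences from VEH were 4.01 in PEAK_140, -0.37 in NADIR_180, 1.97 in CONS_140 and 3.46 in CONS_180 (SE 1.84 each), and none was called (limma adjusted p = 0.0703, 0.941, 0.359 and 0.122). Without CONS_140 replicate 2 the region was called in CONS_140, and without CONS_140 replicate 1 its sign turned. With only the 4 libraries compared in the fit it was called in PEAK_140 and CONS_180 (adjusted p = 0.029 and 0.0493).

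The Irf1 region, chr10:39097711-39098336, was intergenic, centred 11498 b upstream, with a peak called in CONS_180 alone. It was at 0.45 and -0.88 in VEH, 2.22 and -0.45 in PEAK_140, -0.75 and -0.62 in NADIR_180, 2.54 and 0.35 in CONS_140 and 2.50 and 2.68 in CONS_180. CONS_180 was above VEH by 2.80 (SE 1.09, limma adjusted p = 0.0454) and above NADIR_180 by 3.27 (SE 1.09, adjusted p = 0.0352), and both calls were lost with any 1 of the 4 libraries left out. The region entered the set through its peak in CONS_180, which favoured a rise in that group, so no conclusion is drawn from these tests. Both regions near Irf9 had a peak called in CONS_140 alone. That choice favoured a rise in CONS_140, so no conclusion is drawn from a rise there. Near Irf9 the region 12236 b upstream, chr15:34270437-34270964 at the promoter of Rnf31, was at -0.86 and -1.0 in VEH and at 4.13 and 2.06 in CONS_140, a rise of 4.02 (SE 0.99, adjusted p = 0.00661). It was at 1.87 and -0.48 in PEAK_140 and at 0.57 and 1.42 in NADIR_180, which was above VEH without overlap as in 88.5% and 63.5% of all GR regions, and these differences of 1.63 and 1.93 were not called (adjusted p = 0.155 and 0.379). In CONS_180 it was at 1.94 and 1.58, a rise of 2.69 (adjusted p = 0.0373), which was lost with any 1 of the 4 libraries left out, and it exceeded NADIR_180 by 0.76 (adjusted p = 0.528). The region 48498 b upstream of Irf9, chr15:34234174-34234701 at the promoter of Dcaf11, was called in no comparison with all libraries as deposited, with 0.43 and 0.26 in VEH and 4.08 and -1.03 in CONS_140. It was called as higher than VEH in CONS_140 without CONS_140 replicate 2, and as lower than VEH in PEAK_140 under quantile normalization.

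**Figure D5:**
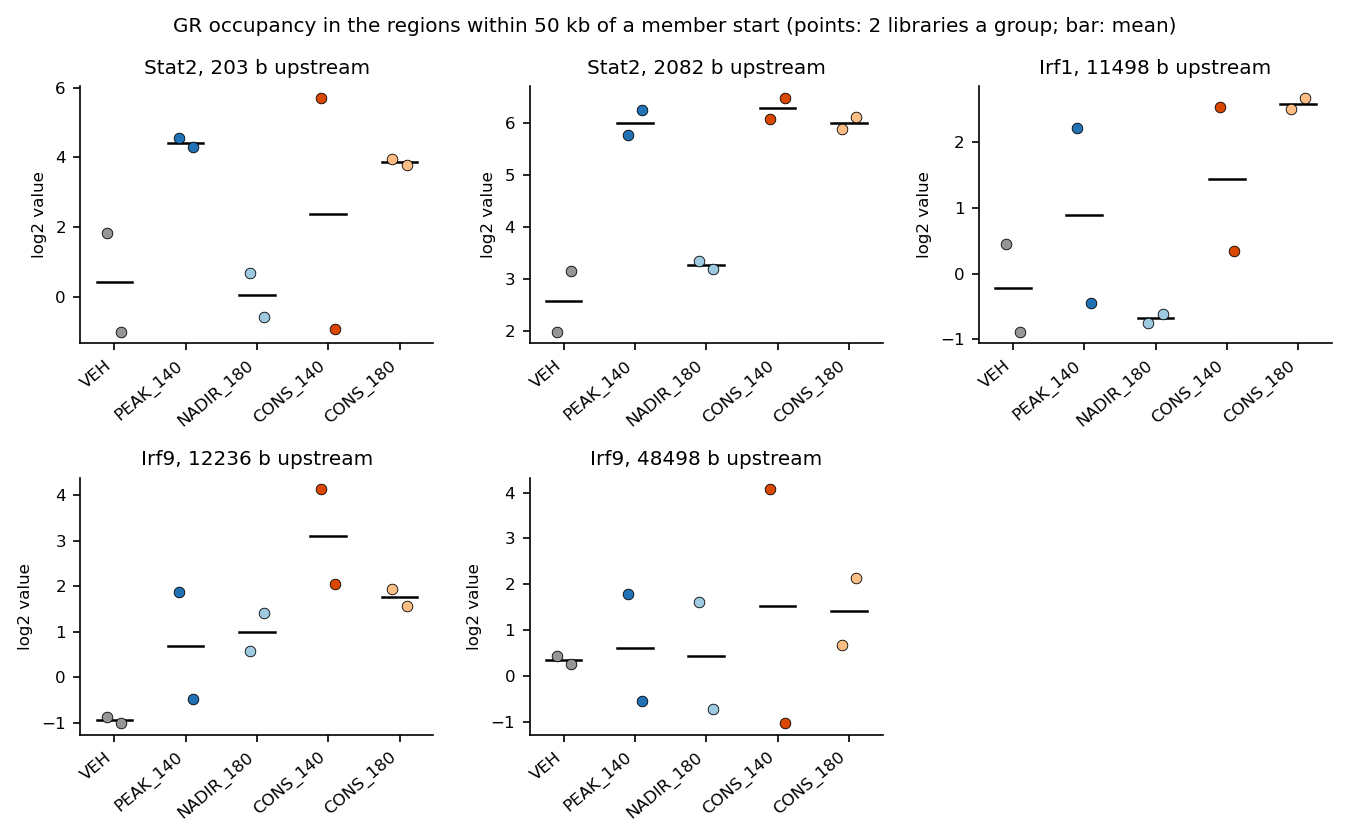
GR log2 values in the 5 regions within 50 kb of a start of the interferon signalling genes, by group. Points are the 2 libraries and bars the mean, on a scale of its own for each region. The region 2082 b upstream of Stat2 is at 5.76 or more in PEAK_140, CONS_140 and CONS_180 and at 3.35 or less in VEH and NADIR_180.

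Counted over the 5 regions, 1 was raised relative to VEH in PEAK_140, 0 in NADIR_180, 2 in CONS_140 and 3 in CONS_180, against 78.6%, 7.44%, 64.7% and 67.9% of all GR regions. Relative to NADIR_180, 1 was raised in PEAK_140 and 2 in CONS_180, against 68.8% and 49.6%. None was called between CONS_140 and CONS_180 (0% of all GR regions) or between PEAK_140 and CONS_140 (0.0502%), where 0 and 1 had an unadjusted p below 0.05 in limma, beside 4.87% and 14.1% of all GR regions. The median difference from VEH was 1.63, 0.09, 1.97 and 2.80 over the 5 regions, beside 4.17, 0.84, 3.38 and 3.46 over all GR regions. With the median region of every library set to 0, which removes those common rises, none of the 5 was called in any comparison with VEH and the regions called without it had values below 0. Under that setting 534, 477 and 327 of all 3981 GR regions were called in PEAK_140, CONS_140 and CONS_180, and 0 in NADIR_180. In the VEH libraries 64.1% and 74.3% of all GR regions had values below 0, after the subtraction of input tags, so that differences from VEH rest on values near the lower end of the scale. Side by side, the 2 genes whose RNA fell in CONS were Irf1, with a GR region 11498 b away, and Usp18, with none within 50 kb. Within 100 kb there were 2 GR regions for Irf1 and 3 for Usp18. Stat2, next to the region 2082 b upstream of it, had an RNA difference of -0.22 in CONS and a pSer2 Pol2 difference of 0.55 in CONS_180. Neither difference was called.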

How the data were processed

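The series held 42 libraries, of which 12 RNA-Seq, 10 GR and 10 pSer2 Pol2 ChIP-Seq libraries were analysed here. The 10 input libraries entered only through the authors' subtraction. For RNA the authors deposited raw counts of exonic reads per Ensembl gene (rn6, Rnor_6.0; featureCounts 1.6.2 and STAR in the submitters' processing notes). For ChIP the authors deposited log2 values per region and library, made with HOMER 4.9.1 and DESeq2 from tags aligned to rn6 with input subtracted, and drawn towards the region mean where tags are few. The authors' methods give the scaling of GR as that to tags within binding regions, whereas the heading of the deposited GR values names total tags. Which of the 2 holds for the values used here was not settled. The authors' peak lists, which have no scores, gave positions only. The tables also hold the authors' own fold changes and p-values, which were not used. Gene names were taken from the pSer2 Pol2 table.

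Genes whose reads summed to over 10 across the RNA libraries entered edgeR 4.0.16 in R 4.3.3 (TMM, quasi-likelihood test, all 12 libraries in 1 fit), and regions entered limma 3.58.1 (all 10 libraries of an assay, variance trend). pSer2 Pol2 regions with 1 value in all libraries were left out, which left 38315, many of them a gene and its transcript with the same bounds. P-values were adjusted over all features (Benjamini-Hochberg), and calls required an adjusted p below 0.05 and a change over 1.5-fold (0.585 on the log2 scale). SE in edgeR was derived from the F statistic. The 8 genes, the pathway lists and the rules were chosen with earlier results of these data known. Named were the 8 genes, all GR regions within 50 kb, up to 20 called pathway genes by smallest adjusted p, Mx1, and the 3 genes most like each member in log2 CPM (prior count 2, mean of at least 1 CPM). Some items that these rules would name are not reported here. CPM compare a gene between libraries and not genes with each other. Alternatives covered normalization, filters, tests, regions, windows of 25 and 100 kb, replicate blocks and each library left out in turn. Same-numbered pSer2 Pol2 libraries deviated together (correlations of 0.15 to 0.55 over 6 pairs of CORT groups), so that the numbers were taken to pair that assay. The VEH libraries of that assay carry no number. Scripts were tested on simulated data.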

Additional observations from a re-analysis of the deposited data

Results flagged for a closer look

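Stat2 RNA was above the vehicle mean in all 3 PULS CORT libraries and below it in all 3 CONS CORT libraries, while the interaction was -0.28 on the log2 scale (SE 0.16, edgeR adjusted p = 0.489) and was not called. GR in the region 2082 b upstream of Stat2 was higher in CONS_180 than in NADIR_180 by 2.73 (limma adjusted p = 0.00275). These groups differ in pattern and share the time point. The region had a peak called in CONS_180 and none in NADIR_180, a choice that favours CONS_180. This test therefore cannot decide whether the patterns differ there. The difference was close to the median over all GR regions in that comparison, 2.49, where 49.6% of them were called as raised. Median centring brought the Stat2 region to -0.15 (adjusted p = 0.941), which was not called. GR in the region 11498 b upstream of Irf1 differed in the same comparison by 3.27 (adjusted p = 0.0352). It was chosen by a peak called in CONS_180 alone, a choice that favours CONS_180, so this test cannot decide whether the patterns differ there. Its call was lost when any of the 4 libraries was left out. Median centring brought its difference to 0.39 (adjusted p = 0.895), which was not called. pSer2 Pol2 over Cxcl10 was higher in PEAK_140 than in CONS_140 by 3.63 (adjusted p = 0.0473), a call that was lost with 3 of its 4 libraries left out in turn and with no variance trend (adjusted p = 0.0805).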

How the results depend on the processing

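With each library left out in turn, Irf1 and Usp18 stayed below 0 and called in CONS, and the number of the 8 genes called was 2 to 3 there and 0 to 1 in PULS (Irf1). Over 6 other settings, Irf1 and Usp18 in CONS had edgeR, DESeq2 or limma adjusted p of 1.33e-09 to 0.000906 and of 0.000104 to 0.00578. In PULS 1 of the 8 (Irf1) was called with DESeq2, with no filter on low counts and with only the libraries compared, and in CONS 4 were called with no filter or with only the libraries compared, Irf7 and Mx2 being the added genes. DESeq2 called 3 in CONS, with Irf7 added (-0.95). Irf7 in PULS was at -0.00224 with DESeq2 and -0.054 with limma-voom. Leaving out 1 library moved PULS values of genes that were not called across 0, from -0.035 to 0.12 for Stat2, -0.53 to 0.23 for Irf7, -0.60 to 0.29 for Isg15, -0.62 to 0.20 for Mx2 and -0.48 to 0.40 for Gbp2. The other interferon-stimulated genes called, counted under these alternatives after the data had been seen, were 8 to 17 in CONS and 2 to 4 in PULS with 1 library left out, and 14 to 19 and 3 to 4 under other settings. In CONS the calls of Mx1 and Gbp5 ended with limma-voom (adjusted p = 0.0509 and 0.0506), and those of Gbp7 and Dhx58 with only the libraries compared (0.0523 and 0.0507). Dtx3l lost its call under both settings and under DESeq2, and Ifi44l with only the libraries compared.

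The replicate numbers did not pair the RNA or GR libraries, in which same-numbered libraries had correlations of their deviations of -0.05 to 0.08 and -0.03 to 0.07. With the replicate block 1 of the 8 genes was called in PULS (Irf1, -0.82) and 4 in CONS (Irf7, -0.95, and Mx2, -1.13, added), and 2 GR regions (both of Stat2) were called for PEAK_140 against VEH and 2 against NADIR_180, and the block changed no other count of calls of the 8 genes or 5 regions by over 1.5 times.

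For pSer2 Pol2 none of the 8 genes was called under any setting other than leaving out a library. Without CONS_140 replicate 2 there were 2 calls against VEH (range 0 to 2), 1 against CONS_180 (range 0 to 1) and 1 between PEAK_140 and CONS_140 (range 0 to 1). The single library of a group was then assumed to vary like the other groups.

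Centring each GR library on its median takes away the common rise by construction, and 0 regions were then called in PEAK_140, CONS_140 and CONS_180 against VEH and in PEAK_140 and CONS_180 against NADIR_180. Of all 3981 GR regions, 534, 477, 327, 216 and 0 were called in these comparisons. The values against VEH became -0.60 (PEAK_140), -2.14 (CONS_140) and -0.60 (CONS_180) for the Stat2 promoter region, -1.18 (PEAK_140), -0.48 (NADIR_180), -0.40 (CONS_140) and -0.63 (CONS_180) for the region 2082 b upstream of Stat2, -2.99 (PEAK_140), -0.089 (CONS_140) and -1.37 (CONS_180) for the region 12236 b upstream of Irf9, -3.52 (PEAK_140) and -1.26 (CONS_180) for the Irf1 region and -4.35 (PEAK_140) for the region 48498 b upstream of Irf9. Against NADIR_180 the region 2082 b upstream of Stat2 became -0.70 in PEAK_140 and -0.15 in CONS_180, and that 12236 b upstream of Irf9 became -2.12 in CONS_180. Quantile normalization, which makes the libraries alike in distribution, gave 2 calls in PEAK_140 and 0 in CONS_140 and CONS_180 against VEH, and 0 in CONS_180 against NADIR_180. Of all 3981 GR regions, 1039, 771, 819 and 169 were then called in these comparisons. The 2 called in PEAK_140 were other regions than the 1 called otherwise and lay below VEH, the Irf1 region at -2.28 and the region 48498 b upstream of Irf9 at -3.26. Between PEAK_140 and NADIR_180 the 1 call was then the region 12236 b upstream of Irf9 (-2.59). It turned the region 2082 b upstream of Stat2 to -0.36 in PEAK_140, -0.23 in NADIR_180 and -0.12 between them, the Stat2 promoter region to -0.091 in CONS_140, the Irf1 and Irf9 regions to -0.90 and -0.30 in CONS_180, and the Irf9 region to -1.14 in PEAK_140 and, between CONS_180 and NADIR_180, to -1.76. With only the 4 libraries compared there were 2 calls in PEAK_140 against VEH and 2 against NADIR_180 (both Stat2 regions), and the Stat2 promoter region was also called in CONS_180 against VEH (3.46, adjusted p = 0.0493). Within 100 kb, where more regions enter, calls were 8 in PEAK_140, 1 in NADIR_180, 8 in CONS_140 and 8 in CONS_180 against VEH, and 8 in PEAK_140 and 5 in CONS_180 against NADIR_180. That window held 4 regions near Stat2, 3 near Usp18 and 2 each near Irf1, Irf9 and Gbp2. Of all 3981 GR regions, 3204, 310, 2590 and 2714 were called against VEH, and 2757 and 1976 against NADIR_180. Leaving out 1 library gave 1 to 2 calls in PEAK_140, 2 to 4 in CONS_140 and 1 to 1 in CONS_180 against VEH, 1 to 1 in CONS_180 against NADIR_180 and 0 to 1 between PEAK_140 and CONS_140. The Stat2 promoter region then ran from -1.79 to 1.04 in NADIR_180 and from -1.36 to 5.30 in CONS_140, and in PEAK_140 against VEH the Irf1 region ran from -0.24 to 2.44 and the region 48498 b upstream of Irf9 from -0.89 to 1.44, neither of which was called there. Between PEAK_140 and NADIR_180 the region 12236 b upstream of Irf9 ran from -1.47 to 0.87. Where no construction is named, the cause was not tested.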
